A study of Arabidopsis thaliana with 6 samples.

Results

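The genes described here encode oil body proteins of Arabidopsis thaliana. The list was set by locus identifier and holds 9 genes, namely the oleosins OLEO1, OLEO2, OLEO3, OLEO4 and AT3G01570, the caleosins CLO1, CLO2 and CLO3 (better known as RD20), and the steroleosin HSD1. Of these 9 genes, 8 were found among the 30509 genes measured, and HSD1 is not analysed here. RNA was compared between germinated Col-0 seeds at stage II, when the radicle has just protruded, in DT and DS groups of 3 biological replicates each, with 1 array per replicate and 6 arrays in all. The DT seeds (desiccation tolerant) were incubated for 3 d at 22 °C in the dark in a polyethylene glycol (PEG) solution of -2.5 MPa, which withdraws water osmotically. The DS seeds (desiccation sensitive) were collected after germination under constant white light and received no incubation, so PEG, darkness and the added days cannot be told apart. Each replicate was a pool of whole germinated seeds, with embryo and remaining seed coat and endosperm together.

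Seeds store triacylglycerol in oil bodies, droplets surrounded by a single layer of phospholipid in which a few abundant proteins are anchored. Oleosins carry a long hydrophobic hairpin that dips into the oil, and they keep the droplets small and separate while a seed dries and takes up water again. Caleosins have the same kind of anchor together with a calcium-binding EF hand and act as peroxygenases, and steroleosins join an oil body anchor to a sterol dehydrogenase domain. The oleosins and caleosins of seeds are made during maturation and are removed as the oil is used after germination.

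All values are the deposited signals on the log2 scale, so a difference of 1 is a 2-fold ratio of signal. The medians of the arrays lay between 4.72 and 4.73 in DT and between 4.76 and 4.78 in DS. The correlation between arrays across genes, which are not independent replicates, was 0.957 to 0.975 within DT, 0.972 to 0.977 within DS and 0.798 to 0.819 between the groups. As a guide to the level of genes with little or no RNA, 95% of the 2862 pseudogenes on the array averaged no more than 4.96 in DT and 4.93 in DS. A gene was called when its mean differed by at least 1 and the unadjusted p of limma was at most 0.05. Adjusted p-values are those of limma with Benjamini-Hochberg adjustment over all 30509 genes, since an exact test of 3 against 3 arrays cannot give a p below 0.1.

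Most of the oil body protein genes were much higher in DT than in DS germinated seeds. OLEO1, OLEO2, OLEO4, AT3G01570, CLO1 and CLO2 were called higher, OLEO3 was higher by much less than the 2-fold threshold, and RD20 did not pass the test. Thus 6 of the 8 measured genes were called higher and 0 lower, against 263 (0.862%) and 415 (1.36%) of all genes. By adjusted p alone 7 of the 8 were higher and 0 lower, against 9.97% and 19.9% of all genes. All DT arrays lay above all DS arrays in the same 7 genes, which held for 15.5% of all genes. The median difference was 2.14 over the 8 genes and -0.02 over all genes. RNA came from whole seeds, so a larger share of RNA from cells that express these genes and more RNA of these genes per cell cannot be told apart.

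**Figure D1:**
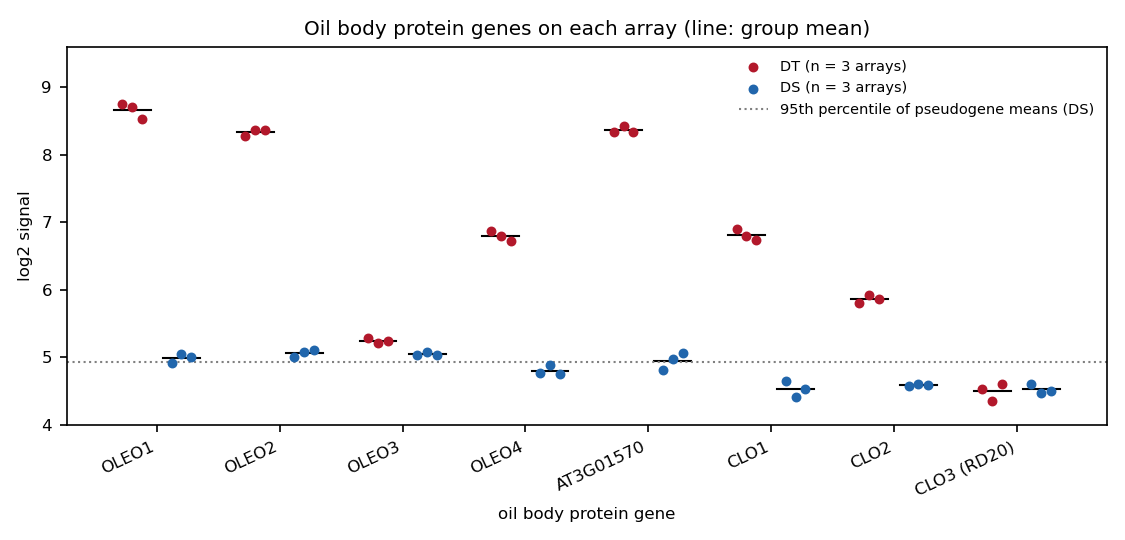
Log2 signal (vertical axis) of the 8 measured oil body protein genes on each array, with DT in red to the left of DS in blue and black lines for the means of 3 arrays. The dotted line is the 95th percentile of pseudogene means in DS, 4.93; DT lies above DS in every gene but RD20, with the smallest gap in OLEO3.

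The oleosins OLEO1, AT3G01570 and OLEO2 gave the 3 largest measured differences of the list. OLEO1 (AT4G25140, chr4:12900430-12901577, plus strand, TAIR10.1, 2 exons), the main oleosin of Arabidopsis seeds, had 8.75, 8.71 and 8.53 in DT, against 4.91, 5.05 and 5.01 in DS. The lowest DT array was thus far above the highest DS array. The difference was 3.68 (SE 0.070, 95% interval 3.51 to 3.84, adjusted p = 9.32e-08), a ratio of signals of 12.8 (11.4 to 14.3), and the rise ranked 5 among the 30509 genes.

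OLEO2 (AT5G40420, chr5:16173340-16174783, minus strand, 2 exons) had 8.28, 8.37 and 8.38 in DT, against 5.01, 5.08 and 5.11 in DS. Its replicates were close, with an SD of 0.051 in DT and 0.053 in DS. The difference was 3.27 (SE 0.051, 95% interval 3.15 to 3.39, adjusted p = 8.07e-08), which ranked 14 among all rises.

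AT3G01570 (chr3:221939-222827, minus strand, 2 exons), annotated as an oleosin family protein, had 8.34, 8.43 and 8.34 in DT, against 4.81, 4.98 and 5.06 in DS. The difference of 3.42 (SE 0.071, 95% interval 3.25 to 3.58, adjusted p = 1.44e-07) ranked 9. All DT arrays were above all DS arrays.

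OLEO4 (AT3G27660, chr3:10243244-10245023, plus strand, 2 annotated transcripts of 2 or 3 exons) had 6.87, 6.80 and 6.73 in DT, against 4.77, 4.88 and 4.75 in DS. The groups were again well apart. The difference was 2.0 (SE 0.058, 95% interval 1.86 to 2.13, adjusted p = 5.37e-07), and the DS mean of 4.80 lay below the pseudogene level.

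OLEO3 (AT5G51210, chr5:20820068-20820944, plus strand, 2 exons) was the only oleosin of the list that was not called. It had 5.28, 5.21 and 5.24 in DT, against 5.03, 5.09 and 5.03 in DS. The groups did not overlap, but the lowest DT array was only 0.12 above the highest DS array. The difference of 0.20 (SE 0.046, 95% interval 0.09 to 0.30, adjusted p = 0.0128) was below the fold threshold, with a ratio of signals of 1.15 (1.06 to 1.23) and a rank of 3273. Its means, 5.25 in DT and 5.05 in DS, both lay close to the pseudogene level. OLEO1 and OLEO2 had like DS means, 4.99 and 5.07, and rose by 3.68 and 3.27. At such levels the size of a fall or a small rise in OLEO3 RNA may not have been readable.

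Of the caleosins, CLO1 and CLO2 were called higher and RD20 was not. CLO1 (AT4G26740, ATS1 in RefSeq, chr4:13473516-13475371, minus strand, 6 exons), a peroxygenase of seed oil bodies whose loss slows oil breakdown after germination, had 6.90, 6.80 and 6.74 in DT, against 4.64, 4.41 and 4.53 in DS. All DT arrays were above all DS arrays by at least 2.10. The difference was 2.29 (SE 0.072, 95% interval 2.12 to 2.46, adjusted p = 7.73e-07).

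CLO2 (AT5G55240, ATPXG2 in RefSeq, chr5:22405896-22407351, plus strand, 6 exons), also annotated as a peroxygenase, had 5.80, 5.93 and 5.87 in DT, against 4.58, 4.61 and 4.58 in DS. The lowest DT array was 1.19 above the highest DS array, the smallest such gap among the 6 called genes. The difference was 1.27 (SE 0.050, 95% interval 1.16 to 1.39, adjusted p = 1.87e-06). The DS means of CLO1 (4.53) and CLO2 (4.59) lay below the pseudogene level, so no ratio is given.

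RD20 (AT2G33380, chr2:14144831-14146555, minus strand, 2 annotated transcripts of 5 or 6 exons) is the caleosin known for its induction by drought, salt and abscisic acid (ABA) in vegetative tissue. It had 4.53, 4.36 and 4.60 in DT, against 4.61, 4.47 and 4.50 in DS. The groups overlapped and both lay below the pseudogene level given above. The difference was -0.03 (SE 0.073, 95% interval -0.20 to 0.14, adjusted p = 0.829), and its sign turned when each array was centred on its median (0.014). CLO1 had a like DS mean (4.53, against 4.52 for RD20) and rose by 2.29. At levels this low a fall or a small rise in RD20 RNA may not have been detectable.

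Replicate scatter was small beside the differences of the called genes. Over the 8 genes the largest range of 3 replicates was 0.25, while the smallest gap between the groups in the 6 called genes was 1.19. The highest DT value fell on replicate 1 in 4 genes, on replicate 2 in 2 genes and on replicate 3 in 2 genes. The 6 genes stayed called with any 1 array left out. In DS the 8 means lay between 4.52 and 5.07, close to the pseudogene level, so differences, ratios and ranks are those of the signals as measured. How far background signal compresses them was not tested.

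**Figure D2:**
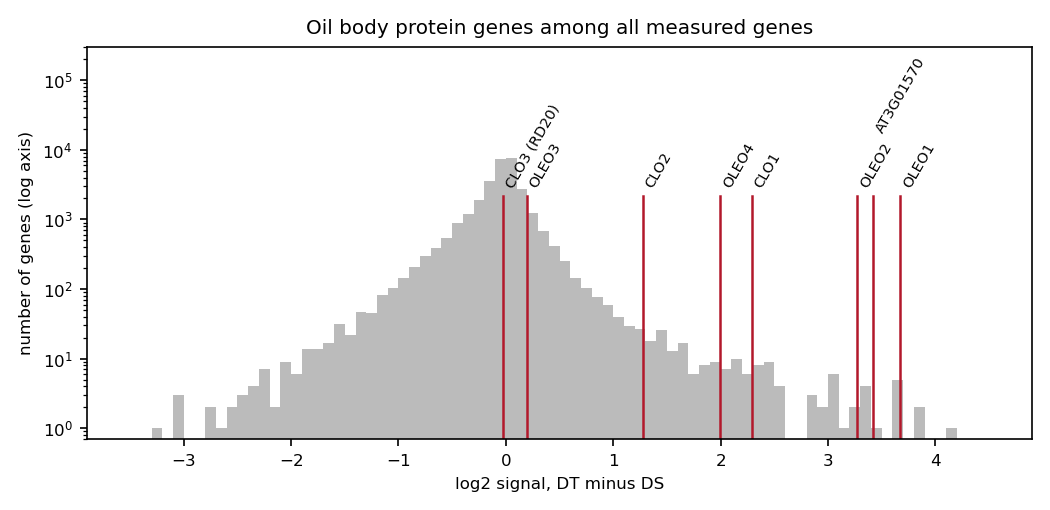
Histogram of the difference in log2 signal, DT minus DS (horizontal axis), over all 30509 genes, with the number of genes on a log axis. Red lines mark the 8 oil body protein genes: OLEO1 (3.68), AT3G01570 (3.42) and OLEO2 (3.27) lie in the far right tail, RD20 (-0.03) and OLEO3 (0.20) in the main peak.

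HSD1 (AT5G50600, chr5:20589702-20591937, minus strand, 6 exons), the seed steroleosin, has a second annotated copy, AT5G50700 (chr5:20623024-20625279), and neither is analysed here. Their coding sequences of 1050 bases each had 0 differences in TAIR10.1, and 92.6% of the 25-base words of the HSD1 transcript (1412 of 1525) occurred elsewhere in the genome. Such sharing was almost absent from the measured oil body genes of the list, and its effect on the arrays was not tested. OLEO1, OLEO2, OLEO3 and RD20 had 0 words of this length elsewhere, CLO1 and CLO2 shared 1 with each other, and AT3G01570 and OLEO4 had 2 of 790 and 9 of 1383 words that recurred elsewhere.

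The sequences before the annotated starts of OLEO1 and OLEO3, the oleosins of the list with the largest and the smallest difference, are shown with that of RD20, which did not pass the test. The windows are the 250 bases before the gene start on the gene's strand, from RefSeq (TAIR10.1), at chr4:12900180-12900429 for OLEO1, chr5:20819818-20820067 for OLEO3 and chr2:14146556-14146805 for RD20. Capitals mark the ABRE core ACGTG, with the G-box CACGTG that contains it, and the RY core CATGCA, on either strand. ABRE cores are bound by bZIP factors of ABA signalling, and RY elements by B3 factors of seed maturation such as ABI3, FUS3 and LEC2.
OLEO1: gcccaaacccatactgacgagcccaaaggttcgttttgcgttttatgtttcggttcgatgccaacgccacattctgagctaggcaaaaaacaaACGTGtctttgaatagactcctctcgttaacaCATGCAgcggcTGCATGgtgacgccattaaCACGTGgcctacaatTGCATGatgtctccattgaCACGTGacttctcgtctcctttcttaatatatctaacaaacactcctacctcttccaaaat
OLEO3: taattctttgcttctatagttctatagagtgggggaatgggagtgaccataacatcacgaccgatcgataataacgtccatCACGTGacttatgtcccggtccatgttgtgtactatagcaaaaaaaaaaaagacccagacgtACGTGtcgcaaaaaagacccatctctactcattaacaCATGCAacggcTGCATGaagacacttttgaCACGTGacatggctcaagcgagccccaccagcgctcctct
RD20: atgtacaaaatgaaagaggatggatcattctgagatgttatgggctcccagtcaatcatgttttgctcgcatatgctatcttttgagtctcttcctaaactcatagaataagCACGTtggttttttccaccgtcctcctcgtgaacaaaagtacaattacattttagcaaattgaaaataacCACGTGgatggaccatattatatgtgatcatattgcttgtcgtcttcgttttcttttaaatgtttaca
OLEO1 and OLEO3 held the same kinds of motif in these windows. OLEO1 had RY cores at -125, -114 and -80 and G-boxes at -95 and -61, where -1 is the base before the start and each position is the first base of the match. OLEO3 had RY cores at -70 and -59 and G-boxes at -169 and -40, each gene having 1 further ABRE core. RD20 had a G-box at -68 and a further ABRE core at -138 but no RY core, and its other G-box lies just after the start, beyond the letters shown.

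A pair of RY cores facing each other was nearly the same in OLEO1 and OLEO3. The stretch of 17 bases starts at -125 in OLEO1 and at -70 in OLEO3, and the genes differ at 1 base of it. Capitals mark the whole stretch.
OLEO1: CATGCAGCGGCTGCATG
OLEO3: CATGCAACGGCTGCATG

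CLO1 and CLO2 shared a run of 16 bases just before their starts, beginning at -26 in CLO1 and at -35 in CLO2, which contains 1 RY core on the minus strand. The run is in capitals within 30 bases of each gene.
CLO1: tcggcgcGTGCATGTCCGCCACGcacatca
CLO2: gtcgtgtGTGCATGTCCGCCACGgagcatc
Both were called higher in DT, with differences of 2.29 and 1.27. The window of CLO1 overlaps an exon of its neighbour AT4G26750, and that of AT3G01570 an exon of AT3G01572.

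The motifs were counted in 8 of the 9 genes, without OLEO2, and in 27443 protein-coding genes, on both strands, from 250 bases before to 50 bases after the start. The RY core was in 7 of these 8 genes, all but RD20, and in 9.72% of all promoters. Of the 8, 3 had 2 or more matches, against 1.94% of all, but those of OLEO4 overlap in 1 site (CATGCATG). The ABRE core was in 6 of the 8 and in 26.7% of all, the G-box in OLEO1, OLEO3 and RD20 and in 7.68% of all, and both ABRE and RY cores in 5 of the 8 and in 2.91% of all. The DRE core CCGAC, bound by DREB factors, was in CLO1 and CLO2 and in 4130 of the 27443 genes. Each G-box reads ACGTG on both strands and was taken as 1 site. OLEO4 and CLO2, called higher in DT, held no ABRE core in this window, and RD20 held 3 such sites.

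**Figure D3:**
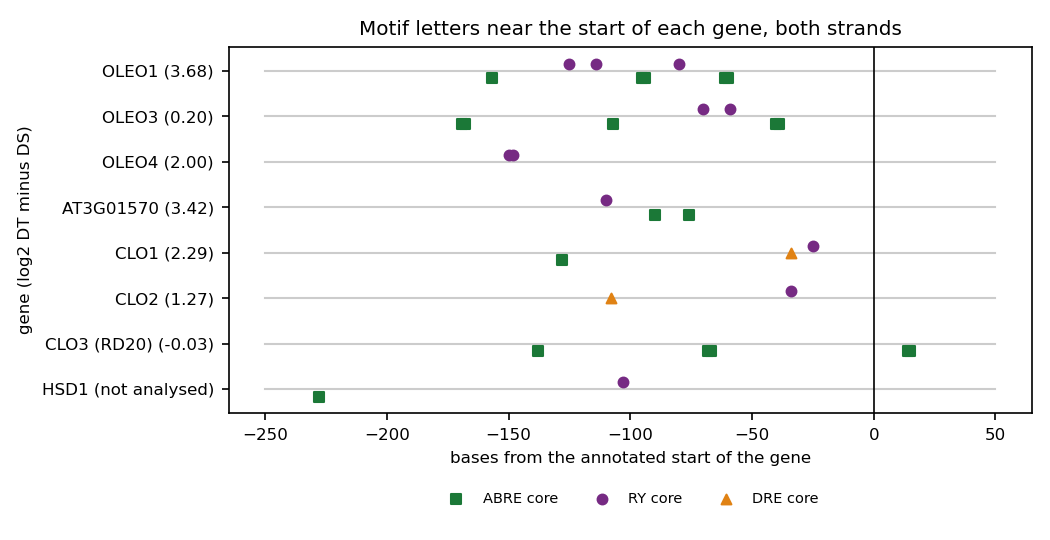
Matches to the ABRE, RY and DRE cores along each of 8 genes, without OLEO2, in bases from the annotated gene start (horizontal axis), with the difference in log2 signal, DT minus DS, after each name. RY cores appear in every gene drawn but RD20, and OLEO1 (3.68) and OLEO3 (0.20) have similar sets of ABRE and RY cores. The signal of OLEO3 was close to the pseudogene level in both groups.

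Outside the list, other genes of the oil body and its oil were examined in the same fit. Over 34 measured genes of 37 listed oleosins, caleosins, steroleosins and proteins of lipid droplet coat and biogenesis, 5 were called higher and 0 lower. Of all genes 0.862% were called higher and 1.36% lower. By adjusted p alone 14 were higher and 4 lower, against 9.97% and 19.9% of all genes. The 34 genes and the 14 higher ones include AT5G07470, which is annotated as PMSR3 and not as an oleosin. The median was 0.10, against -0.02 over all genes. Of the 5 called, 3 were oleosins.

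The 4 other oleosins listed outside the pollen coat cluster were all higher in DT. Of these 4 genes, 3 were called higher, against 0.862% of all genes. By adjusted p all 4 were higher, against 9.97% of all genes, and the median was 1.61. AT2G25890 had 7.43, 7.41 and 7.45 in DT, against 4.78, 4.97 and 5.05 in DS, a difference of 2.49 (SE 0.072, adjusted p = 5.35e-07). AT5G56100 differed by 1.91 (adjusted p = 1.25e-06) and AT1G48990 by 1.3 (adjusted p = 2.24e-05), whereas AT3G18570 (0.78, adjusted p = 1.29e-05) stayed below the fold threshold. These 4 genes are annotated with 1 exon, while the 5 oleosins listed first have 2 or more.

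The oleosins of the tapetum and pollen coat, which belong to the anther and not the seed, served as markers of another tissue. Of 10 genes of this list, 0 were called, against 0.862% of all genes higher and 1.36% lower. By adjusted p 0 were higher, against 9.97% of all genes. GRP16 alone was lower (log2 difference -0.25, adjusted p = 0.00988), against 19.9% of all genes. The means of GRP16, 4.49 in DT and 4.74 in DS, lay below the pseudogene level. RefSeq names AT5G07570 of this list a glycine/proline-rich protein, and the GRP genes glycine-rich proteins, without the word oleosin. The median of the 10 genes was 0.04 and the largest rise was 0.22, in AT5G61610 (adjusted p = 0.0552). A further locus of this list, AT5G07470, is annotated as the methionine sulfoxide reductase PMSR3 and not as an oleosin, and it had 6.98 ± 0.072 in DT and 6.09 ± 0.079 in DS (SD, n = 3 each; limma adjusted p = 2.53e-05). With it the list had 1 gene higher by adjusted p, and the median was again 0.04.

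AT1G13930, which no list held and which was chosen after its values were seen, is annotated as an oleosin-B3-like protein and was lower in DT. It had 5.87, 5.73 and 5.77 in DT, against 6.34, 7.12 and 7.45 in DS, a difference of -1.18 (SE 0.24, adjusted p = 0.00714). DS replicate 1 lay nearest to DT, and without DS replicate 3 the difference was -0.94, below the fold threshold.

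Of the 5 caleosins beyond the list of 9, 0 were called, against 0.862% of all genes higher and 1.36% lower, and the median was 0.06. By adjusted p 1 was higher and 1 lower, against 9.97% and 19.9% of all genes. AT5G29560 was higher by 0.18 (adjusted p = 0.0156), and CLO4, a caleosin of vegetative tissue, was lower, at 4.76 ± 0.054 in DT and 4.96 ± 0.026 in DS (SD, n = 3 each; log2 difference -0.20, limma adjusted p = 0.0152). The means of the 5 genes lay between 4.48 and 4.76 in DT and between 4.41 and 4.96 in DS. These levels are below or close to the pseudogene level, which limits what can be read from such small differences.

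Among the steroleosins 4 of 7 were measured, and 1, HSD5, was called higher, against 0.862% of all genes. By adjusted p 2 were higher and 0 lower, against 9.97% and 19.9% of all genes. HSD5 (AT4G10020, chr4:6268273-6270434) had 6.28, 6.45 and 6.49 in DT, against 4.91, 4.91 and 4.90 in DS, a difference of 1.49 (SE 0.062, adjusted p = 2.50e-06). HSD6 was higher by 0.40 (adjusted p = 0.000752), and HSD2 gave the lowest difference, -0.13 (adjusted p = 0.136).

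Of 10 genes for proteins that coat or build lipid droplets, 1 was called higher, against 0.862% of all genes. By adjusted p 6 were higher and 2 lower, against 9.97% and 19.9% of all genes, and the median was 0.34. AT1G65090, for which RefSeq gives only the product name nucleolin, was called at 1.37 (SE 0.088, adjusted p = 1.85e-05). The seipin AT5G16460, of a family that shapes new droplets at the endoplasmic reticulum, was higher by 0.67 (adjusted p = 2.95e-05). The seipin AT1G29760 was higher by 0.36 (adjusted p = 0.00332), and the seipin AT2G34380 did not pass the test (-0.02, adjusted p = 0.801). AT2G47780, a rubber elongation factor protein of a family found on lipid droplets of many tissues, was lower, with 7.48 ± 0.14 in DT and 8.23 ± 0.058 in DS (SD, n = 3 each; log2 difference -0.75, limma adjusted p = 0.000196). Of the same family, AT1G67360 was lower (log2 difference -0.50, adjusted p = 0.000528), and AT3G05500 did not pass the test (0.01, adjusted p = 0.911).

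Of 5 genes for the removal of oil body proteins and for oil body lipases, 2 were higher and 0 lower by adjusted p, against 9.97% and 19.9% of all genes, and the median was 0.12. AT3G14360, an alpha/beta-hydrolase, was called at 1.06 (SE 0.10, adjusted p = 0.000159), and without DT replicate 2 the difference was 0.98. CDC48, an ATPase that extracts proteins from membranes, was higher by 0.28 (adjusted p = 0.00223). The triacylglycerol lipases SDP1 and SDP1-LIKE had differences of -0.06 (adjusted p = 0.478) and -0.07 (adjusted p = 0.455), neither of which passed the test.

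Of 8 enzymes of triacylglycerol assembly 0 were called, against 0.862% of all genes higher and 1.36% lower. By adjusted p 1 was higher and 5 were lower, against 9.97% and 19.9% of all genes, and the median was -0.25, against -0.02 over all genes. ROD1, which hands phosphatidylcholine-derived diacylglycerol on for oil synthesis, was at 4.86 ± 0.068 in DT and 5.46 ± 0.068 in DS (SD, n = 3 each; log2 difference -0.60, limma adjusted p = 0.000133). TAG1, a membrane-bound O-acyltransferase of the last step, was higher by 0.38 (adjusted p = 0.00322).

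**Figure D4:**
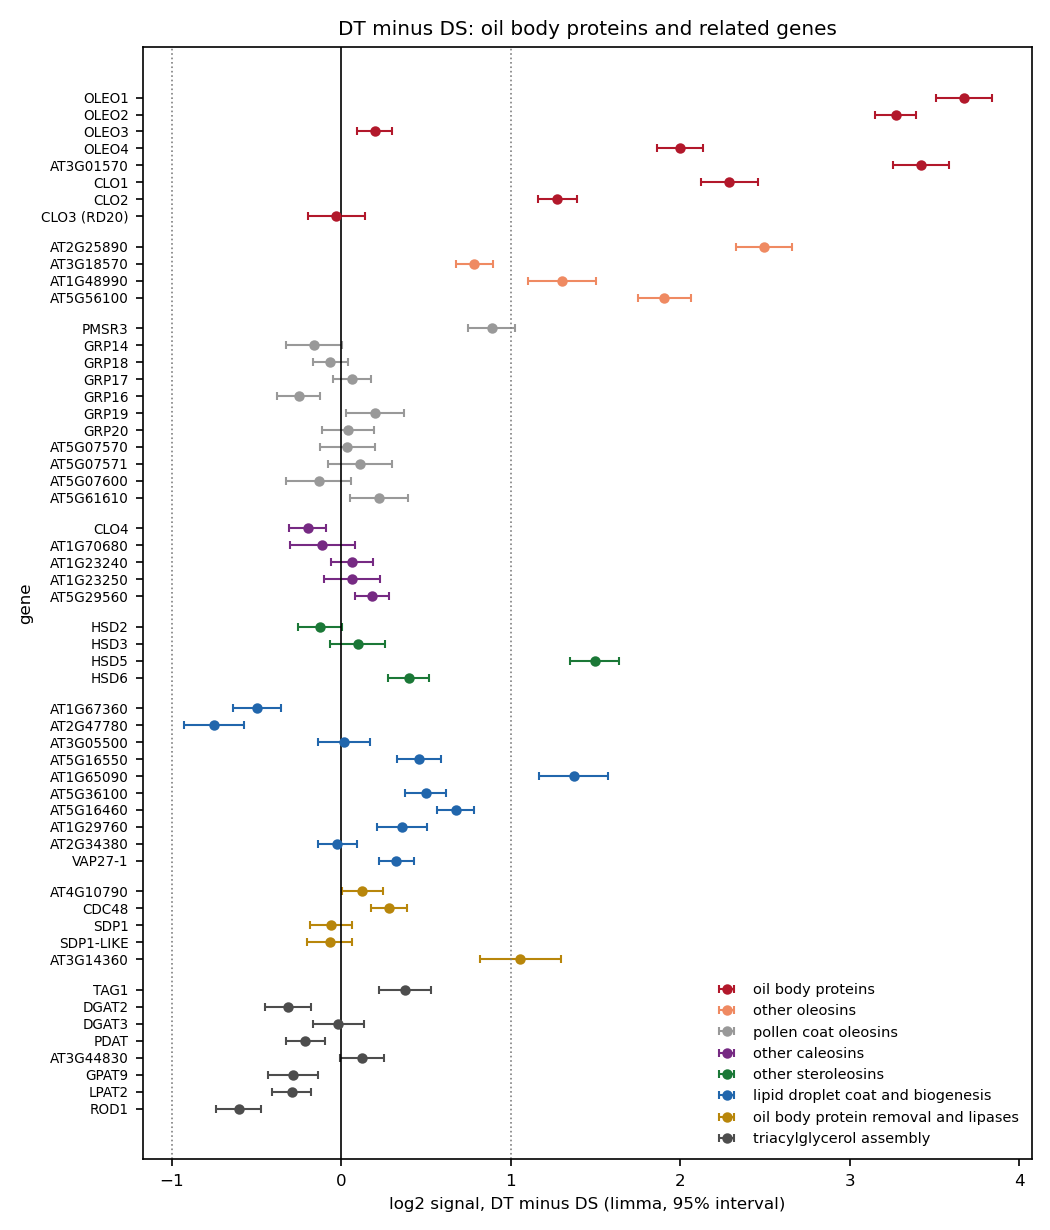
Difference in log2 signal, DT minus DS (horizontal axis), with its 95% interval from limma (bars) for the 8 oil body proteins and the 7 related gene lists; dotted lines mark the fold threshold of 1 in either direction. OLEO1 (3.68), AT3G01570 (3.42) and OLEO2 (3.27) lie farthest to the right. OLEO3 (0.20), the pollen coat list without PMSR3 (0.89) and the other caleosins lie near 0, and 6 of the 8 enzymes of triacylglycerol assembly lie below 0.

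Markers of cell types in the seed were read beside these results. Of 3 endosperm markers 3 were higher in DT, 2 of them by adjusted p, against 9.97% of all genes. Their mean was 6.34 to 6.80 on DT arrays and 5.84 to 5.99 on DS arrays. MAN7, a mannanase, was called at 1.21 (adjusted p = 0.000155). Of 3 markers of the embryo epidermis, PDF1 was lower (log2 difference -0.86, adjusted p = 1.20e-05) and the other 2 did not pass the test, and the mean was 5.51 to 5.64 in DT and 5.90 to 5.98 in DS. The root tip markers PLT1, PLT2 and WOX5 lay below the pseudogene level in both groups, with means of 4.45 to 4.86. Of 2 genes of green cells, RBCS1A was lower (log2 difference -0.24, adjusted p = 0.00361) and CAB1 did not pass the test (-0.43, adjusted p = 0.073), and the mean was 7.63 to 7.90 in DT and 8.0 to 8.16 in DS. For comparison with PDF1 and RBCS1A, 19.9% of all genes were lower by adjusted p. The part of these marker shifts in the oil body results was not tested.

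Storage proteins of the mature embryo were higher in DT as well. The cruciferin genes CRA1, CRU3 and CRU2 were called at 4.20, 3.39 and 1.06, against 0.862% of all genes called higher. The mean of the 3 was 7.61 to 7.71 on DT arrays and 4.76 to 4.86 on DS arrays. Over the 8 oil body genes the mean was 6.80 to 6.84 on DT arrays and 4.80 to 4.82 on DS arrays.

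The 5 genes outside all lists whose profiles over the 6 arrays were nearest to that of OLEO1, as deviations from the DS mean, were sought as well. By Euclidean distance on the log2 scale, the nearest was TIP3;1 (0.11), an aquaporin of the membrane of protein storage vacuoles. AT2G21820 (0.14), the vicilin-type storage protein gene PAP85 (0.23), the late embryogenesis abundant gene AT2G21490 (0.25) and M17 (0.33), also a late embryogenesis abundant gene, followed. Their differences lay between 3.62 and 3.85, and the likeness is a description over 6 arrays in 2 groups.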

How the data were processed

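RNA of 3 DT and 3 DS replicates was primed with oligo(dT) and read on Affymetrix SNPtile arrays of Arabidopsis. The authors extracted the signals in R with a TAIR9-based annotation and quantile-normalized them, and the deposited table holds 30509 genes with 1 log2 value each per array. The summary over probes and any background correction are not given in the sources used here. These values were fitted over all genes, DT minus DS and without covariates, by lmFit and eBayes of limma 3.58.1 (R 4.3.3). The prior had 3.71 degrees of freedom. On arrays simulated for 30509 genes, with 200 changed by 1.5, all 200 were called with 1 other. Positions, transcripts and promoters were taken by locus identifier from RefSeq TAIR10.1 (30078 matched, 431 did not) with Python 3.11.15. Protein sequences were not used here, so protein features were not examined. The promoter of OLEO2 is not reported here. The number of arrays limits the precision. Replicates were pools of seeds, and the p-values set the DT minus DS difference against the spread between pools, moderated over all genes.

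The oil body genes and the related lists were chosen with earlier results of these data known. By rule, all 9 oil body genes, the markers and the 5 profiles nearest to OLEO1 are named. So are the largest rise and fall and every called gene of each list. Further genes of the lists, such as HSD6, the seipins, AT1G67360, CDC48 and SDP1, are named outside this rule, as is AT1G13930. Replicate numbers were not used to pair the arrays in the main fit. Alternatives were other call rules, variance models and scalings, a filter on dim genes, a replicate block and each array left out.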

Additional observations from a re-analysis of the deposited data

How the results depend on the processing

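With 15 alternatives each, the 6 called oil body genes stayed called in the same direction, with an adjusted p of at most 0.00129, and 0 were called lower. The widest range was that of OLEO1, 3.61 to 3.74. Without the fold threshold, by adjusted p, OLEO3 passed as well (0.20) and 7 were higher. The counts became 14 higher and 4 lower for the other oil body genes, and 3043 higher and 6085 lower for all genes. RD20 turned sign with arrays centred (0.014), without DT replicate 2 (0.040) and without DS replicate 1 (0.014), its range over left-out arrays being -0.082 to 0.040, and it was not tested where dim genes were left out. Repeated quantile normalization gave 324 genes called higher and 318 lower, against 263 and 415. Correlations of deviations between DT and DS arrays of the same number were 0.06, -0.01 and 0.10 for numbers 1, 2 and 3. Between arrays of unlike numbers they ran from -0.13 to 0.07. The labels do not say whether equal numbers mark a pair, and the main fit used none. With the replicate block 6 oil body genes were called higher, and 264 of all genes higher and 415 lower. The cause of these changes was not tested. Low signal limits what can be read from RD20 and OLEO3 about a fall or a small rise.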
